A study of Mus musculus with 8 samples.

Results

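Cwc22 and Masp2 were each measured by 1 row of a mouse brain microarray study, 2 of 22206 rows and 2 of the 19505 genes with a symbol. They were picked from their own values on these 8 arrays, for very large differences of a single array or of a group, so their levels are given as a description without a test. The RNA was brain RNA of male ICR mice, an outbred stock bought at 8 weeks of age, given drinking water alone or with rosemary extract (RE) by mouth for 7 days. The 4 groups held 2 arrays each. Water with TST (the tail suspension test, a brief hanging by the tail), low-dose RE with TST at 10 mg/kg, and high-dose RE with TST were the stressed groups, and water without TST was the unstressed one. The titles give the high dose as 100 mg/kg and another label field gives 50 mg/kg. One field labels the unstressed mice as positive control and the stressed water mice as negative control, and groups were taken from the titles. ICR mice are not inbred, so the animals of a group can carry different alleles. The labels do not say whether an RNA sample came from 1 mouse or from a pool of the 7 mice assigned to a group, and the tissue is named limbic system in one field and hippocampus in another.

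Cwc22 encodes a spliceosome protein that binds the helicase Eif4a3 and brings it to spliced messages, where the exon junction complex forms. The complex marks exon borders and feeds nonsense-mediated decay, the removal of messages with early stop codons. Masp2 encodes a serine protease of blood plasma that is made mainly in the liver. It circulates bound to mannose-binding lectins, ficolins and collectins, and it starts the lectin pathway of complement by cutting C4 and C2. In house mice, a segment of chromosome 2 called R2d, which holds Cwc22, is known to vary in copy number between strains and within some outbred stocks, with extra copies at a separate site on that chromosome. No DNA was measured here, copy number and genotype were not tested, and an array probe cannot tell near-identical copies of a gene apart.

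The reference sequence around the annotated start of each transcript is shown because transcript level is what differs between arrays. It is that of C57BL/6J from RefSeq (GRCm38.p6), 250 bases before to 50 bases after the start, and the alleles of the ICR mice were not read. The Cwc22 sequence lies at chr2:77946307-77946606 on the minus strand and the Masp2 sequence at chr4:148602294-148602593 on the plus strand. Capitals mark ACTACAA or its reverse complement.
Cwc22: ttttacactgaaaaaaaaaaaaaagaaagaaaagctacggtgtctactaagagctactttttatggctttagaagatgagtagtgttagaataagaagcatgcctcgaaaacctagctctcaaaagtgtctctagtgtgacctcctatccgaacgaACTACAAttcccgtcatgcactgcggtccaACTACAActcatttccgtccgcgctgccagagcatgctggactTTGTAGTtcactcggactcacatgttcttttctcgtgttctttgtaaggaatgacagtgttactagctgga
Masp2: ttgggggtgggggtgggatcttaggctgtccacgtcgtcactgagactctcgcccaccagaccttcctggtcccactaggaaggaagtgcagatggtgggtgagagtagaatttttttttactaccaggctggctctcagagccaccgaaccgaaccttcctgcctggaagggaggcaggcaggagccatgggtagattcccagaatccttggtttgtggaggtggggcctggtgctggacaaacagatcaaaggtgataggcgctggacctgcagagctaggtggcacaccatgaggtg
ACTACAA, the opening letters of a motif bound by ZNF143 in human promoters, matched at 3 places in the Cwc22 sequence on the 2 strands together and at 0 in the Masp2 sequence. At least 1 match was present in 3.24% of 32817 mouse promoter sequences of the same length. That share is given as background, and enrichment was not tested. Motifs of general promoter factors and of the liver factor HNF4 were also searched on both strands and matched in neither sequence. The TATA box form TATAAA occurred in 13.6% of the promoters and the CCAAT box in 37.4% of them. The GC box GGGCGG occurred in 35.6%, and CAAAGGTCA, a form of the HNF4 motif, in 0.478%. The Cwc22 sequence held 42.0% G and C with 11 CpG, and the Masp2 sequence 57.0% with 6, beside medians of 52.7% and 7.

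One array stood apart from the rest in its correlations. Water with TST replicate 2 correlated across rows with the other arrays at 0.967 to 0.978, whereas the other 7 arrays correlated among themselves at 0.983 to 0.993. Of 10 measured markers of forebrain excitatory neurons, 8 were lowest on that array, for example Camk2a, at 14.52 there and up to 18.11 log2 units elsewhere. The other members, Prox1 at 11.24 and Neurod2 at 9.38, were highest there. The levels of the list were uneven, with C1ql2 between 6.72 and 8.02 and Spink8 between 6.76 and 7.56. The mean of 11 cerebellar markers lay 5.17 above its 8-array mean on that array, 2.96 above it on water without TST replicate 1, and between -1.73 and -0.591 on the rest. On water with TST replicate 2 the 10 of 11 forebrain excitatory markers measured averaged -1.58 and the 7 of 7 choroid plexus markers -1.64 from their 8-array means. Of the 7 choroid plexus markers, 6 were lowest there, while Otx2 read 7.76, with 6.62 to 8.07 on the other arrays. Marker content also set water without TST replicate 2 apart. Its striatal markers averaged 1.89 above their 8-array means, with 7 of 7 measured highest there. Its hypothalamic markers averaged 1.37 above, with 6 of 8 measured highest there. The others, Hcrt at 6.98 and Pomc at 6.65, reached 7.02 and 8.05 on other arrays. In bulk tissue, fewer cells of a type and less RNA per cell cannot be told apart. On low-dose RE replicate 2 the dim part of the scale was raised, with a lower quartile of 5.81 against 5.48 to 5.68 on the other arrays. That array also had the lowest upper quartile, at 10.08 against 10.15 to 10.31, so its scale was narrower at both ends. All values are deposited log2 values after robust multichip averaging (RMA), and some exceed 16, the limit of a 16-bit scanner, so a fold computed from them is that of the deposited scale.

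Cwc22 was high on a single array. It read 8.10 and 8.21 log2 units in water with TST, 8.57 and 13.71 in low-dose RE with TST, 7.74 and 7.73 in high-dose RE with TST, and 8.08 and 7.99 in water without TST. Low-dose RE replicate 2 was far above the rest, while its partner in the same group lay next to the other groups. The 7 other arrays ran from 7.73 to 8.57 with a median of 8.08, a range of 0.84. The high array lay 5.14 above the nearest of them and 5.63 above their median, which is 49.5-fold on the deposited scale. On that array the means of 13 marker lists, 1 of them a single erythrocyte gene, lay between -1.69 (cerebellum) and 0.94 (choroid plexus) from their 8-array means. All 7 choroid plexus markers were highest there. The cerebellar mean was similar on water with TST replicate 1 (-1.5), low-dose RE replicate 1 (-1.73) and high-dose RE replicate 2 (-1.65). The part of these lists in the Cwc22 value was not tested.

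**Figure D1:**
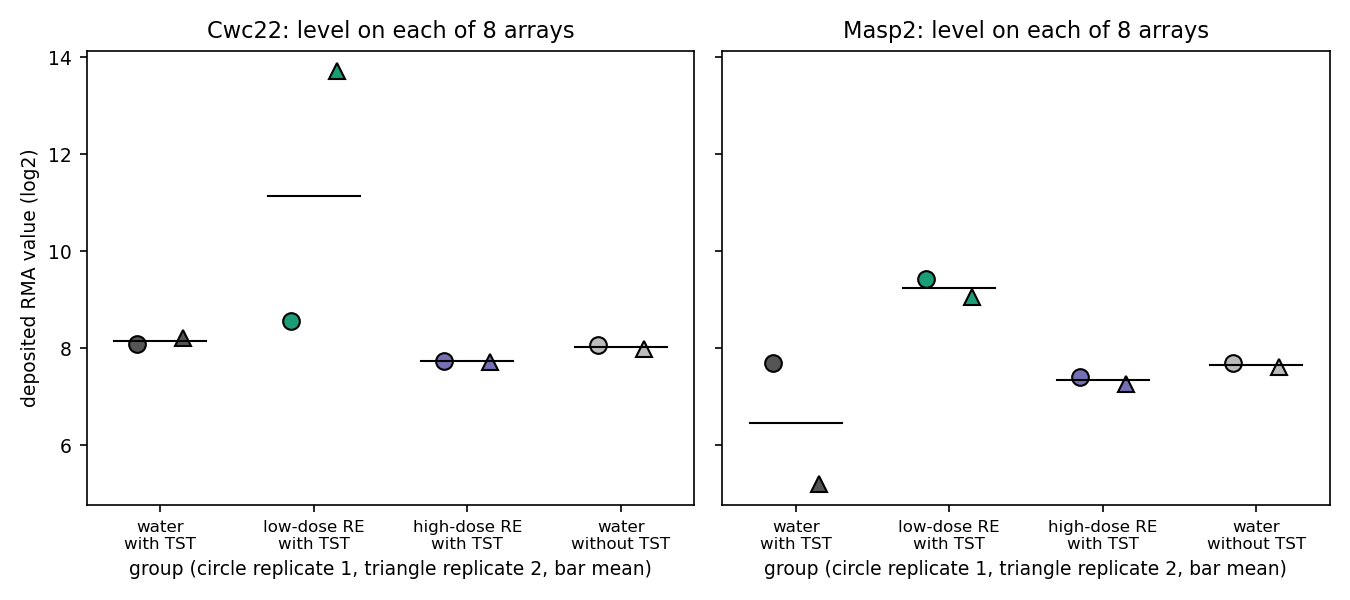
Deposited log2 values of Cwc22 (left) and Masp2 (right) on each of the 8 arrays by group, with circles for replicate 1, triangles for replicate 2 and a bar for the group mean. Cwc22 reads 13.71 on low-dose RE replicate 2 and at most 8.57 elsewhere; Masp2 reads 9.44 and 9.07 in low-dose RE, 5.20 on water with TST replicate 2 and 7.26 to 7.71 on the other 5 arrays.

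The group means of Cwc22 carry that array with them. Low-dose RE averaged 11.14 ± 3.63 and water with TST 8.155 ± 0.08 (SD, n = 2 arrays each), a difference of 2.985. Without low-dose RE replicate 2 the difference was 0.415, so that array supplied most of it. High-dose RE averaged 7.735 ± 0.01, which was -3.405 against low-dose RE and -0.835 without the high array. Against water with TST, high-dose RE was at -0.42, a description of 2 arrays each. Water with TST differed by 0.12 from water without TST, at 8.155 ± 0.08 and 8.035 ± 0.06.

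Among all rows, the gap that sets Cwc22 apart was second in size. Sorting the 8 values of each row and taking the widest step between neighbours gave 5.14 for Cwc22, a median of 0.32 over all rows, and a larger step only for Gabra6 at 5.89. Gabra6 encodes a GABA-A receptor subunit found mainly in granule cells of the cerebellum, and it was high on replicate 2 of water with TST and replicate 1 of water without TST. Of the 10 symbols with the widest steps, Cbln3, Fat2, Pcp2, Cbln1, Arhgef33 and Car8 split the arrays in the same way as Gabra6, and Ddn and Stum were low on water with TST replicate 2. Cwc22 was the only one of the 10 whose step set low-dose RE replicate 2 apart. Within the low-dose pair its difference of 5.14 was the largest of all 22206 rows, where the median row differed by 0.33. In that pair 1439 rows differed by over 1 log2 unit. The count was 2826 in water with TST, 361 in high-dose RE and 727 in water without TST. In the other pairs Cwc22 differed by 0.11 (water with TST), 0.01 (high-dose RE) and 0.09 (water without TST). The median rows of those groups differed by more, at 0.37, 0.22 and 0.25.

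**Figure D2:**
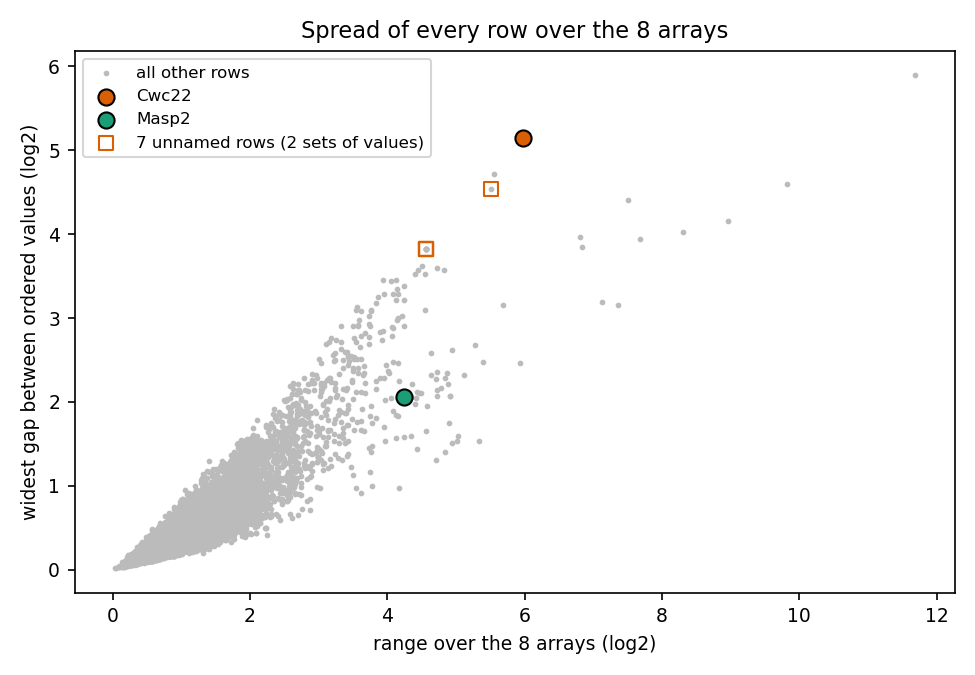
Range over the 8 arrays (x, log2) and widest step between ordered values (y, log2) of every row, with Cwc22, Masp2 and the 7 unnamed rows marked. Cwc22 lies at a range of 5.98 and a step of 5.14, above the bulk of rows; Masp2 lies at 4.24 and 2.06.

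The rows next in size within the low-dose pair shared the Cwc22 pattern. They were 7 rows without a gene name here, picked out after their values were seen, and 6 of the 7 had the same value as each other on every array, so that the 7 give 2 distinct measurements. TC0200001212.mm.2 read 9.54 and 9.73 in water with TST, 9.98 and 14.52 in low-dose RE, 9.25 and 9.01 in high-dose RE, and 9.57 and 9.10 in water without TST. The 6 equal rows, for example TC0200001206.mm.2, read 10.17 and 9.75 in water with TST, 10.39 and 14.31 in low-dose RE, 9.83 and 10.09 in high-dose RE, and 10.19 and 10.49 in water without TST. As for Cwc22, low-dose RE replicate 2 was high and the remaining 7 arrays lay together. The differences within the low-dose pair were 4.54 and 3.92, and the next row after these 7 differed by 3.68.

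These rows also stood together in the numbering of the array. All 1638 named rows whose identifier starts with TC02 were on chromosome 2 in RefSeq. The 7 rows have consecutive numbers between those of Fam171b and Btbd18, and they were the only rows of the table numbered between this pair of genes. Neither flanking gene followed the pattern. Fam171b, a transmembrane protein gene, read 16.01 on both low-dose arrays, and Btbd18, a piRNA pathway gene of the testis, read 4.52 and 4.86. Counting rows with 1 array at least 3 log2 units above all the others gave 8 rows for low-dose RE replicate 2. They were Cwc22 and these 7, which were picked for their values on that array, so the count only describes them. Of the 7, the 6 equal rows are 1 measurement. The count was 1 row for water with TST replicate 2 and 0 for each of the other 6 arrays. In the downward direction the count was 27 rows for water with TST replicate 2, 1 for water with TST replicate 1 and 0 for low-dose RE replicate 2. Over the 7 arrays without low-dose RE replicate 2, Pearson's r with Cwc22 was 0.908 for TC0200001212.mm.2, the 45th highest of 22206 rows, and 0.347 for the 6 equal rows, a description over 7 arrays.

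**Figure D3:**
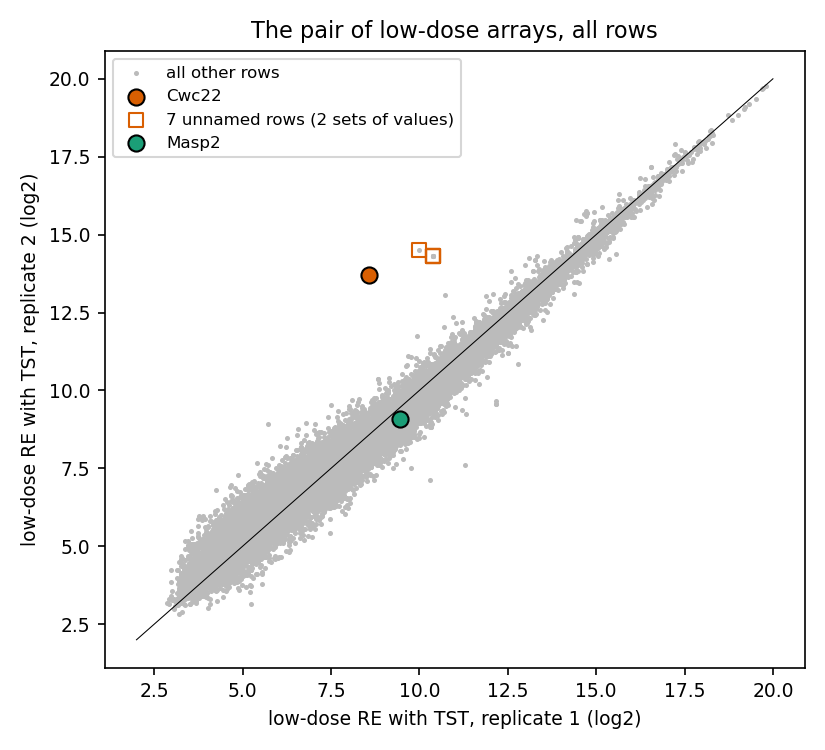
Values of all rows on low-dose RE replicate 1 (x) and replicate 2 (y), both in log2 units, with the line of equality. Cwc22 (8.57 and 13.71) and the 7 unnamed rows (9.98 to 10.39 and 14.31 to 14.52) lie far above the line, and Masp2 (9.44 and 9.07) lies near it.

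The genes around Cwc22 did not share its high value. Of the 10 nearest measured genes on each side in the RefSeq gene order (GRCm38.p6), low-dose RE replicate 2 minus the median of the other 7 arrays ran from -1.97 to 0.61 with a median of -0.04, against 5.63 for Cwc22. Zfp385b, a zinc finger gene and the nearest on one side, was at 0.20, and Sestd1 beyond it at -0.33. On the other side the nearest row was a predicted locus at -0.28, followed by the ubiquitin-conjugating enzyme gene Ube2e3 at 0.11. The lowest was Fkbp7, a prolyl isomerase gene of the endoplasmic reticulum. Fkbp7 read 7.40 and 7.31 in water with TST, 7.48 and 5.43 in low-dose RE, 5.83 and 6.46 in high-dose RE, and 7.42 and 7.57 in water without TST. Its low arrays were low-dose RE replicate 2 and both high-dose arrays. By limma over all rows, 0 of the 20 neighbours passed the study's threshold (fold above 1.2 with an unadjusted p under 0.05) for low-dose RE against water with TST, where 3.54% of all rows did, 1.94% higher and 1.61% lower. For high-dose RE against water with TST 2 of 20 passed, with 3.17% over all rows (1.67% higher and 1.51% lower). They were Ttn, the titin gene, at 0.585 (SE 0.25), and Zfp385b at -1.385 (SE 0.594). Without water with TST replicate 2, Zfp385b was at -0.285 and no longer passed. Ttn no longer passed without high-dose RE replicate 2 (0.405) or water with TST replicate 1 (0.43). For TST and for the dose comparison 0 of 20 passed, where 2.55% (1.29% higher and 1.26% lower) and 1.91% (0.946% higher and 0.968% lower) of all rows did. With limma's p-values adjusted over all rows, 0 rows passed 0.05 in each of the 4 comparisons, where 567, 787, 705 and 425 rows had an unadjusted p under 0.05 for TST, low-dose RE, high-dose RE and between doses. Every call of a neighbour or list gene given here was lost in at least 1 fit that left out an array.

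**Figure D4:**
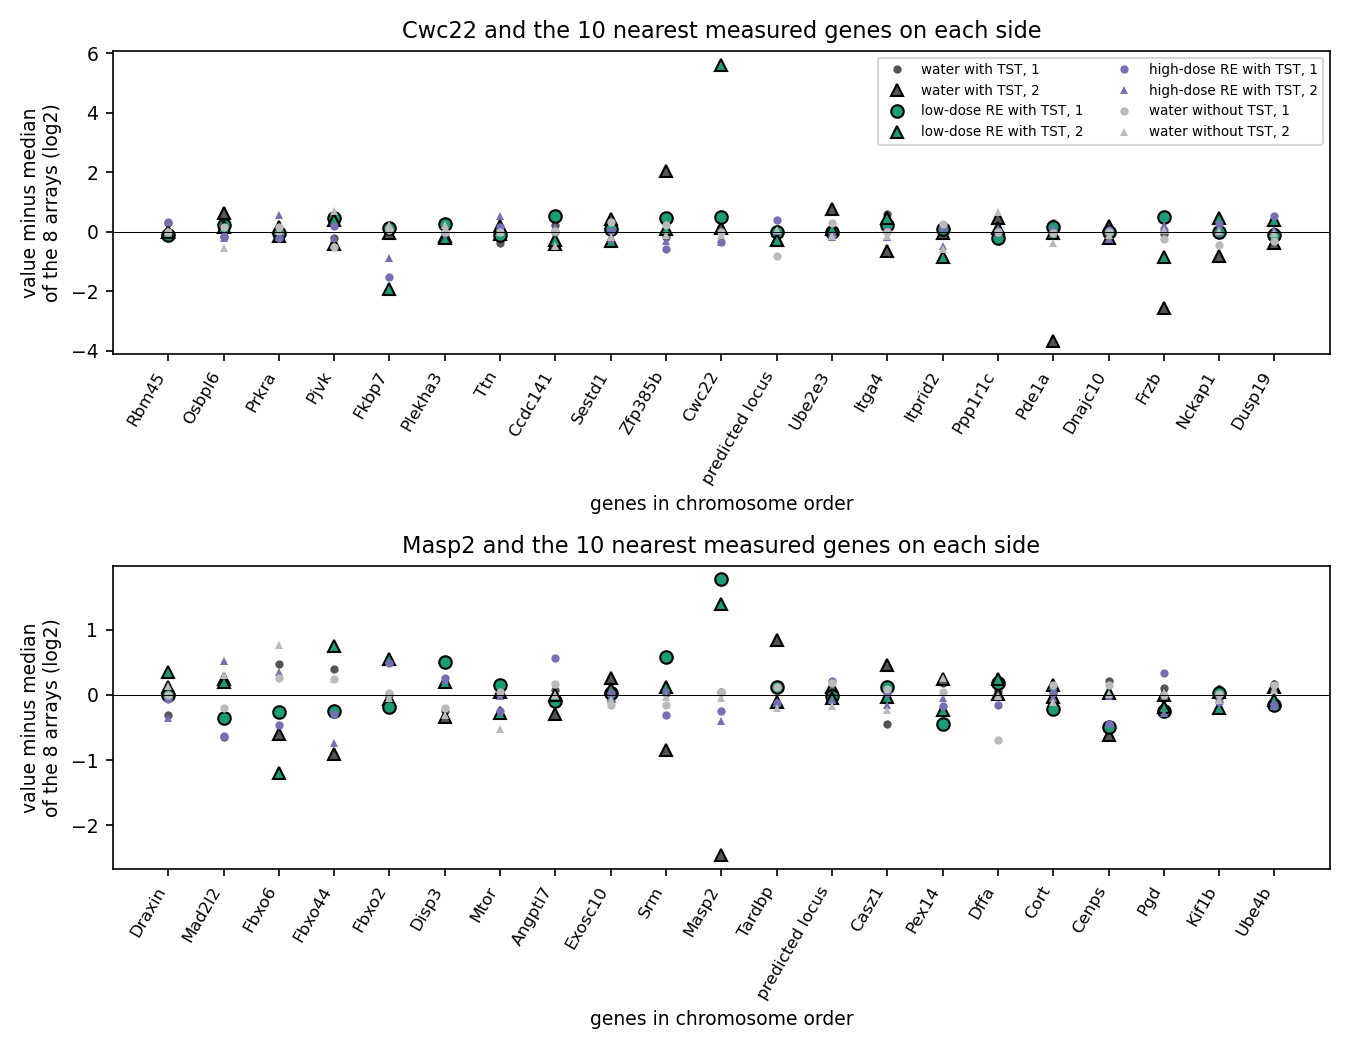
Values of Cwc22 (top) and Masp2 (bottom) and of the 10 nearest measured genes on each side, in chromosome order, as log2 difference from the median of the 8 arrays, with a symbol for each array. Cwc22 stands above all its neighbours on low-dose RE replicate 2 (a value of 13.71), and Masp2 stands above its neighbours on both low-dose arrays (values of 9.44 and 9.07) and low on water with TST replicate 2 (a value of 5.20).

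The partners of the Cwc22 protein did not share its high value. Of 19 genes of the exon junction complex and nonsense-mediated decay, 13 were measured here, and 0 of 13 passed the study's threshold in any of the 4 comparisons. Over all rows 2.55% passed for TST, 3.54% for low-dose RE, 3.17% for high-dose RE and 1.91% between doses, so a count of 0 in a list of 13 is near the background. On low-dose RE replicate 2 they lay between -0.54 (Upf1, the decay helicase) and 0.36 (Acin1) from the median of the other 7 arrays, with a median of -0.07. Eif4a3, the helicase that Cwc22 binds, ranged from 10.05 to 10.43, its core partner Rbm8a from 13.29 to 13.84 and Casc3 from 11.32 to 12.02. Wider spreads, picked out after the values were seen, were those of Smg1, a kinase gene of the decay pathway, and Upf1. Smg1 was 15.20 on water with TST replicate 2 and 12.64 to 13.80 on the other arrays, and Upf1 ranged from 6.78 to 7.91. Across 39 other spliceosome genes the same quantity ran from -0.84 (Cdc5l) to 0.35 (Sf3a2) with a median of -0.22. Of these 39, 1 passed the study's threshold for TST, where 2.55% of all rows passed, the helicase gene Dhx38 at 0.645 (SE 0.256). For high-dose RE 1 of 39 passed, where 3.17% of all rows did, the U2 snRNP subunit gene Sf3b3 at -0.915 (SE 0.272), and 0 did for low-dose RE or between doses. These shares lie near the background and are no result about the list. Without water with TST replicate 2 neither passed, with Dhx38 at 0.495 and Sf3b3 at -0.58; Dhx38 was at 0.44 without water without TST replicate 2. The list medians, the decay list given first, lay at 0.125 and 0.17 for TST. They were -0.175 and -0.17 for low-dose RE, and -0.225 and -0.13 for high-dose RE. Over all rows the medians were 0.005, 0.015 and 0.01. These comparisons share the water with TST arrays, replicate 2 among them, so their medians are not separate observations.

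The rows most like Cwc22 over the 8 arrays resembled it through 1 array. The 5 highest Pearson r, among named rows with a range of at least 1 log2 unit, were those of Ulbp1 (0.962), 4930415O20Rik (0.960), an olfactory receptor row (0.959), Hoxd3os1 (0.955) and Alpi (0.951). They were dim rows, at most 7.31 on any array, and highest on low-dose RE replicate 2, the array whose dim rows were raised. Without it r lay between 0.094 and 0.693 over 7 arrays. The lowest r were those of Brd7 (-0.969), Ly96 (-0.967) and Tbl2 (-0.964), which became 0.197, -0.112 and 0.193 without that array.

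Masp2 had 3 levels. It read 7.71 and 5.20 log2 units in water with TST, 9.44 and 9.07 in low-dose RE with TST, 7.42 and 7.26 in high-dose RE with TST, and 7.71 and 7.62 in water without TST. Both low-dose arrays were high, water with TST replicate 2 was low, and the other 5 arrays lay together between 7.26 and 7.71. The low-dose pair lay at least 1.36 above every other array and its mean was 1.71 above that of the 5, or 3.27-fold on the deposited scale. The low array lay 2.06 below the nearest of the 5 and was at -2.34 from their mean. It is the array highest in cerebellar markers. Replicate 1 of water without TST, next in those markers, read 7.71 for Masp2, level with the arrays low in them, and the part of cerebellar tissue in the low value was not tested. The 7 of 7 thalamic markers averaged -0.171 and -0.961 from their 8-array means in water with TST, 0.759 and 0.349 in low-dose RE, 0.278 and 0.446 in high-dose RE, and -0.379 and -0.321 in water without TST. Their mean was lowest on the low array of Masp2 and highest on low-dose RE replicate 1, and both high-dose arrays were near low-dose RE replicate 2. Of the 7 markers, 5 were lowest on the low array of Masp2, while Calb2 was highest there, at 14.19 against 11.29 to 12.92 elsewhere. Slc17a6 read 12.51 there and 11.86 to 13.14 elsewhere. The part of thalamic tissue in the Masp2 levels was not tested.

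The order of the group means was low-dose RE at 9.255 ± 0.26, water without TST at 7.665 ± 0.06, high-dose RE at 7.34 ± 0.11 and water with TST at 6.455 ± 1.77 (SD, n = 2 arrays each). The last does not differ from its neighbours beyond its spread. The order of water without TST and high-dose RE rests on 2 arrays each and was not tested. Low-dose RE minus water with TST was 2.80, and 1.545 without water with TST replicate 2. High-dose RE minus water with TST was 0.885 and turned to -0.37 without that array. Water with TST minus water without TST was -1.21 and turned to 0.045 without it. High-dose minus low-dose RE was -1.915 and lay between -2.10 and -1.73 with any 1 of its 4 arrays left out. The comparisons that use water with TST share that array.

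Across the table, Masp2 was the only row of 22206 in which both low-dose arrays lay above the other 6 arrays by 1.36 or more, and 0 rows had them below by as much. The limit of 1.36 is the gap of Masp2 itself, a gene picked for such a difference, so these counts only describe it. For water with TST 2 rows lay above and 1 below by that amount, and for high-dose RE and water without TST 0 rows did either way. Its range of 4.24 was matched or passed by 68 rows, itself included, and its widest step of 2.06 by 186. Within pairs Masp2 differed by 0.37 in low-dose RE, 0.16 in high-dose RE and 0.09 in water without TST, near or below the median rows, and by 2.51 in water with TST.

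Around Masp2, its nearest neighbours showed smaller differences. Low-dose mean minus the mean of the 5 arrays ran from -1.01 (Fbxo6) to 0.43 (Srm) over the 20 neighbours, against 1.71 for Masp2. Srm, the spermidine synthase gene directly beside Masp2, read 11.27 and 10.39 in water with TST, 11.83 and 11.36 in low-dose RE, 10.93 and 11.31 in high-dose RE, and 11.08 and 11.21 in water without TST. It was lowest on the same array as Masp2 and highest on the low-dose pair, with r = 0.917 over the 8 arrays and 0.789 over 7 without water with TST replicate 2, as a description. Low-dose RE minus water with TST for Srm was 0.765 (SE 0.336), not past the study's threshold. Tardbp, the TDP-43 gene, lies on the other side, and its RefSeq interval overlaps that of Masp2, so signal of the overlap cannot be assigned without probe positions. Tardbp read 12.51 and 13.25 in water with TST, 12.53 and 12.29 in low-dose RE, 12.28 and 12.30 in high-dose RE, and 12.52 and 12.21 in water without TST. Its high array was the low array of Masp2, and the low-dose values lay among the rest. Exosc10, an exosome subunit gene, ranged from 9.69 to 10.10.

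Of the 20 Masp2 neighbours, 2 passed the study's threshold for low-dose RE against water with TST, beside the 3.54% of all rows given above. Disp3 was at 0.65 (SE 0.224) and the peroxisome gene Pex14 at -0.555 (SE 0.224). For high-dose RE 1 of 20 passed, where 3.17% of all rows did, Disp3 at 0.54 (SE 0.224). For TST and between doses 0 of 20 passed, where 2.55% and 1.91% of all rows did. Neither gene passed for low-dose RE without water with TST replicate 2 (0.60 and -0.525) or without low-dose RE replicate 1 (0.50 and -0.45), and Disp3 did not pass for high-dose RE without water with TST replicate 2 (0.49). Disp3, a dispatched family gene, read 7.62 and 7.52 in water with TST, 8.37 and 8.07 in low-dose RE, 8.12 and 8.10 in high-dose RE, and 7.66 and 7.56 in water without TST. All 4 extract arrays thus lay above all 4 water arrays, a pattern picked out after the values were seen. The share of all rows with that pattern is not given here.

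Other genes of the lectin pathway did not share the Masp2 levels. Of 13 listed genes 12 were measured, and their low-dose mean minus the mean of the 5 arrays lay between -0.24 (Fcnb) and 0.44 (Colec12). Masp1, the sister protease, ranged from 8.62 to 9.24. The mannose-binding lectin genes Mbl1 and Mbl2 ranged from 5.22 to 6.15 and from 7.10 to 8.19, the ficolin genes Fcna and Fcnb from 4.13 to 4.78 and from 4.72 to 5.78, and the collectin gene Colec11 from 5.27 to 6.37. C4b, the Masp2 substrate gene, ranged from 7.01 to 7.66. Levels of different probe sets are not on a common scale and are given only for their spread between arrays. For TST and for low-dose RE 0 of the 12 passed the study's threshold, where 2.55% and 3.54% of all rows did. For high-dose RE against water with TST 3 passed, all lower, where 1.51% of all rows passed as lower. They were the scavenger collectin gene Colec12 at -1.08 (SE 0.34), C2 at -0.825 (SE 0.285) and Serping1, the C1 inhibitor gene, at -0.795 (SE 0.278). Serping1 was at -0.48 without water with TST replicate 2 and C2 at -0.57 without high-dose RE replicate 2, and neither passed then. Between doses 1 of 12 passed, where 1.91% of all rows did, Colec12 at -0.92 (SE 0.34). Colec12 did not pass either comparison without high-dose RE replicate 1 (-0.895 and -0.735). It read 8.34 and 8.07 in water with TST, 8.22 and 7.87 in low-dose RE, 6.94 and 7.31 in high-dose RE, and 8.18 and 7.25 in water without TST, so that 1 unstressed array lay among the high-dose values. The list's median was 0.05 for low-dose RE and 0.045 for high-dose RE, beside 0.015 and 0.01 over all rows.

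Of 29 measured genes of the other complement branches, 1 passed for low-dose RE against water with TST, where 3.54% of all rows did, the terminal component gene C9 at 0.855 (SE 0.356), which was at 0.45 without low-dose RE replicate 2 and at 0.545 without water with TST replicate 1, no longer past it. For high-dose RE 1 of 29 passed, where 3.17% of all rows did, the receptor gene C5ar2 at 0.665 (SE 0.23). Between doses 1 of 29 passed, where 1.91% of all rows did, again C5ar2 at 0.72 (SE 0.23). For TST 0 of 29 passed, where 2.55% of all rows did. These shares lie near the background. C5ar2 was at 0.47 without water with TST replicate 2 and did not pass for high-dose RE. On low-dose RE replicate 2, 3 of the 29 differed by over 1 log2 unit from the median of the other 7 arrays, against 2.47% of all rows, led by C6 at 1.90. C6 is a terminal component gene, low on the scale at 3.76 to 5.96. The liver transcripts, 11 of 11 measured, lay between -0.38 (Fgb) and 0.60 (Apoa1) for the low-dose mean against the 5 arrays. Alb, the albumin gene, read 5.47 and 6.25 in water with TST, 6.09 and 6.85 in low-dose RE, 6.41 and 6.30 in high-dose RE, and 6.38 and 6.34 in water without TST. Of the 11, 0 passed for TST, low-dose RE and the dose comparison, where 2.55%, 3.54% and 1.91% of all rows did. For high-dose RE 1 of 11 passed, where 3.17% of all rows did, namely Serpina1a at -0.81 (SE 0.342), but not without water with TST replicate 2 (-0.45).

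The rows most like Masp2 were picked by their r over the same 8 arrays. The highest Pearson r over the 8 arrays were those of Sdccag8 (0.972), a centrosome and cilium gene, Noct (0.952), a clock-regulated gene, Ism1 (0.949), Pnmal1 (0.942) and Tctn2 (0.940), a gene of the ciliary transition zone. Over 7 arrays without water with TST replicate 2, r lay between 0.847 and 0.934. Those 7 arrays were among the 8 used to pick the rows, and they still held the high low-dose pair. The r over 7 arrays is therefore no separate check of likeness. Sdccag8 read 10.40 and 9.75 in water with TST, 10.77 and 10.51 in low-dose RE, 10.17 and 10.23 in high-dose RE, and 10.31 and 10.23 in water without TST, the same order of extremes over a smaller range. The lowest r were those of Spatc1 (-0.955), Serpinb9g (-0.950) and an olfactory receptor row (-0.947), all dim, at most 5.37. These r describe 8 arrays that share groups and marker content, and the rows were sorted by them.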

How the data were processed

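Clariom S arrays were run on 8 mouse brain RNA samples, 2 per group, grouped by their titles. Per the series' design text, the authors normalized the arrays with the robust multichip average in Transcriptome Analysis Console 4.0.1 and deposited log2 values, 1 per probe set, kept here as deposited. The genome build and detection calls are not given in the sources used here, and precision is limited by having 2 arrays per group. GEO's platform annotation named 19572 of 22206 rows with a single symbol and 0 with more, and 2634 rows carry no name here; the 19572 symbols all matched RefSeq (GRCm38.p6) by gene identifier and 0 symbols changed. Another row had the same 8 values for 254 rows.

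Cwc22, Masp2 and all lists were chosen with earlier results of these data known. For neighbours and lists, limma 3.58.1 in R 4.3.3 was fitted to all rows and 8 arrays (group means, eBayes, two-sided, 4 residual and 4.3 prior degrees of freedom), and p-values were adjusted by Benjamini-Hochberg over the whole table. The lowest adjusted p was 0.997 for TST, 0.946 for low-dose RE, 0.973 for high-dose RE and 1.0 between doses, and 567, 787, 705 and 425 rows had an unadjusted p under 0.05. Since nothing says that the RNA samples were separate animals, the p-values measure spread between these RNA samples only, which may be technical. The methods' one-way analysis of variance and other scalings were tried as alternatives. Named genes were the members, the 5 most and 3 least alike rows, the 10 widest steps, 2 neighbours on each side, 12 core partners and list members past the threshold, up to 4 per list. Predicted loci and olfactory receptors were counted but not named. Extreme neighbours or list members, Disp3's pattern, Smg1, Upf1, the forebrain and liver marker examples and the 7 unnamed rows were picked after their values were seen. The fit was tested on simulated data.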

Additional observations from a re-analysis of the deposited data

How the results depend on the processing

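For Cwc22 and Masp2, quantile normalization and centring each array on its median moved the 8 differences between groups and both ranges by less than the spread between replicates. Leaving out 1 array moved Cwc22 between 0.415 and 5.555 for low-dose RE against water with TST, between -5.975 and -0.835 between doses, between -0.475 and -0.365 for high-dose RE and between 0.065 and 0.175 for TST. Masp2 moved between 1.545 and 4.055 for low-dose RE and between -2.10 and -1.73 between doses, and its sign turned without water with TST replicate 2 for TST (0.045, up to -2.465 without replicate 1) and for high-dose RE (-0.37, up to 2.14). Leaving out 1 array gave 364 to 3707 rows past the study's threshold for TST, 496 to 3767 for low-dose RE, 354 to 3785 for high-dose RE and 247 to 1183 between doses, against 567, 787, 705 and 425 with all arrays; the 3 highest counts were those without water with TST replicate 1, and 1183 was that without low-dose RE replicate 1. A fit of only the groups compared gave 352 for TST and 267 for low-dose RE, the analysis of variance 487 for low-dose RE, and leaving out the dimmest 25% of rows 251 between doses, where fewer rows were tested. The 15 calls of neighbours and list genes kept their sign in every alternative, and all 15 were lost in at least 1 fit that left out an array, 9 of them without water with TST replicate 2. Same-numbered arrays correlated in their deviations at -0.293 to 0.169. The labels do not state a pairing by replicate number. These correlations cannot exclude one, since the deviations also carry differences in marker content. The replicate block gave 497, 702, 632 and 409 rows for the 4 comparisons and lost 3 of the 15 calls. Where an array was left out, the lone array of its group was assumed to vary like the other groups. The cause of these changes was not tested.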
